A study of Mus musculus with 2 samples.

Results

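The genes described here mark alveolar type 1 cells, the thin, flat epithelium across which the lung exchanges gas. The list holds 10 genes, Ager, Hopx, Pdpn, Aqp5, Cav1, Cav2, Rtkn2, Emp2, Clic5 and Akap5, and a probe was counted for a gene when its RefSeq accession belonged to that gene. Matched probes numbered 14 and covered 9 of the 10 genes, out of 20878 gene symbols on the array, and no probe was matched to Rtkn2. All 9 were measured on both arrays, among 15495 genes in all. The study compared whole lung of 1 C57BL6/N sample with 1 C57BL6/N sample that overexpresses HSP27 (heat shock protein 27, gene Hspb1) as a transgene. Both samples were labelled male, 6 weeks old, and both had received bleomycin at 1.25 mg/kg into the trachea 14 days earlier, so every value below is from injured lung and there was no array of untreated lung. The promoter and species of the transgene, the cells in which it is active, and whether a sample was 1 animal or a pool are not given in the sources used here. Since each group has 1 array, spread between animals is unmeasured, and no test or p-value is given.

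Alveolar type 1 cells cover most of the gas-exchange surface and lie against the capillary endothelium, with which they share a fused basement membrane. They are large, hold few organelles and are rich in caveolae, the flask-shaped pits of the plasma membrane that caveolins build. Alveolar type 2 cells, which make surfactant, replace them after injury by passing through a keratin-rich transitional state. Bleomycin injures this epithelium, and the markers of the mature type 1 cell are therefore commonly read in lung fibrosis. Several of the 10 genes are also active elsewhere: caveolins, Emp2 and Clic5 in endothelium, caveolins in fat and muscle, Pdpn in lymphatic endothelium, mesothelium and fibroblasts, Hopx in heart muscle.

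Promoter windows are shown for the 3 members with the largest differences between the arrays, Cav1, Clic5 and Hopx. They come from RefSeq on build GRCm38.p6, run from 250 bases before to 50 after a transcript start, and are read 5′ to 3′ on the gene's strand. The plus strand carries Cav1 and Clic5, and the minus strand Hopx. RefSeq gives 2 starts each for Cav1 and Hopx. Capitals mark the letters of 5 motifs searched on both strands: GGAATG, bound by TEAD factors, CTCAAG, with the CAAG core bound by NKX2-1, TGANTCA of AP-1, the GC box GGGCGG of SP and KLF factors, and TATAAA of the TATA box.
Cav1, chr6:17306085-17306384: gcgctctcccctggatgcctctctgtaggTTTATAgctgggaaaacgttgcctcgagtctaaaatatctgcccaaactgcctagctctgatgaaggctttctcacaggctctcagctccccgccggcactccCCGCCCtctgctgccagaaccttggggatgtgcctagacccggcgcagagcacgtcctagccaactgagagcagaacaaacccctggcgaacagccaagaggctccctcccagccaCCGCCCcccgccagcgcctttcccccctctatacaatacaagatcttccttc
Cav1, chr6:17307390-17307689: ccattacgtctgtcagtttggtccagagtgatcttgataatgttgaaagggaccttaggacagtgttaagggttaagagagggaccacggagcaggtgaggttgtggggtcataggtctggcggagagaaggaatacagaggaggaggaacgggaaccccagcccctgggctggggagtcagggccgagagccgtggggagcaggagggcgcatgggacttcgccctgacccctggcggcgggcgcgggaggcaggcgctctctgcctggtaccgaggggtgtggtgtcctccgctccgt
Clic5, chr17:44188322-44188621: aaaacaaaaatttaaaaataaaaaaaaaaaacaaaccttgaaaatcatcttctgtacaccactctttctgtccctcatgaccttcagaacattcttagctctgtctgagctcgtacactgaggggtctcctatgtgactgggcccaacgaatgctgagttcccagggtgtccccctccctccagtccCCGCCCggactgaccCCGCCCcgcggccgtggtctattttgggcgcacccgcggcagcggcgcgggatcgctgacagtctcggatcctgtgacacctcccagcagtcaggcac
Hopx, chr5:77115074-77115373: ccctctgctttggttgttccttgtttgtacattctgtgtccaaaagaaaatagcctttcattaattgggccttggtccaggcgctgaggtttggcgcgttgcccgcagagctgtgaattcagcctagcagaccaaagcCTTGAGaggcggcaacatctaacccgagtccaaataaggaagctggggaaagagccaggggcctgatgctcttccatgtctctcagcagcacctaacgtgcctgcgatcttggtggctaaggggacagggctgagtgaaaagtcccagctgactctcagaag
Hopx, chr5:77095218-77095517: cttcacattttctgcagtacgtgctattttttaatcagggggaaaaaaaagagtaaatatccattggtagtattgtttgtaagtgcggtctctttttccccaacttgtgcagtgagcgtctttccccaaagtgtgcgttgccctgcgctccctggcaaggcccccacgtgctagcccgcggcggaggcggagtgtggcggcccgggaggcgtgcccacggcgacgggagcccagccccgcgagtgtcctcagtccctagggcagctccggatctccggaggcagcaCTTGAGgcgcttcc

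Windows were found for 9 of the 10 members, 11 windows in all. The GC box was in 7 of the 11 windows, from 7 members, against 35.7% of all 32851 windows in the table. In the Cav2 window 2 of its copies share a base. Both Hopx windows hold CTCAAG on the reverse strand, a motif present in 15.9% of all windows. TGANTCA was in the Cav2 window alone (7.81% of all windows). TATAAA was in 1 Cav1 window, on the reverse strand at -221 from the start (13.6% of all windows). GGAATG was in none of the 11 windows (14.7% of all). The windows of Ager and of the second Cav1 start held none of the 5 motifs. Base composition varied widely, from 48.7% G and C in the Pdpn window to 79.7% in that of Aqp5, beside a median of 52.7% over all windows. A match describes the letters in these windows and is neither a bound site nor a cause of any difference.

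Depth and labels of the arrays were checked first. On both arrays, 69.3% to 69.5% of probes were well above background, and the 75th percentile of signal, subtracted from each array on the log2 scale, was 1287 for C57BL6/N and 1426 for the transgenic array. Hspb1 itself read 41040 in C57BL6/N and 53554 in transgenic lung, 0.24 apart on the scaled log2 scale. Whether its mouse probe detects the transgene is unknown, since the species of the transgene is not given. Sex-linked RNA went against a label: Xist read 521 and 330 at its 2 probes in the C57BL6/N library, labelled male, whereas neither probe passed background in the transgenic library. Some Y-linked RNA was above background in both: Ddx3y read 508 in C57BL6/N and 2437 in transgenic lung (2.11), and Eif2s3y 799.8 and 3338 (1.91). At its brighter probe Uty read 17.1 and 72.5, while its other probe passed background in transgenic lung alone (38.0). Kdm5d also passed background in transgenic lung alone (13.6). The library labelled C57BL6/N thus held Xist and Y-linked RNA together. Differences that go with these sex-linked RNAs and differences that go with the transgene cannot be told apart in any value below.

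In the transgenic lung, 8 of the 9 measured type 1 cell genes read lower than in C57BL6/N lung, and 3 of them, Cav1, Clic5 and Hopx, by at least 1.5-fold. None was at least 1.5-fold higher. Differences ran from -1.08 for Cav1 to 0.01 for Pdpn on the log2 scale (transgenic minus C57BL6/N, after scaling), with a median of -0.49. Over all 15495 genes the median was -0.04, 54.0% of genes were below 0, 8.31% were at least 1.5-fold lower and 10.2% at least 1.5-fold higher. The count of 3 of 9 is thus a larger share than that of all genes, although the genes were listed with earlier results of these data known and no test is attached to the count. Hopx lay just past 1.5-fold, at 1.55-fold lower, and Emp2 just short of it, at 1.47-fold. In whole lung, fewer type 1 cells and less RNA per type 1 cell cannot be told apart. Nor can a different share of RNA from other tissues, or from endothelium, which also makes some of these genes.

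**Figure D1:**
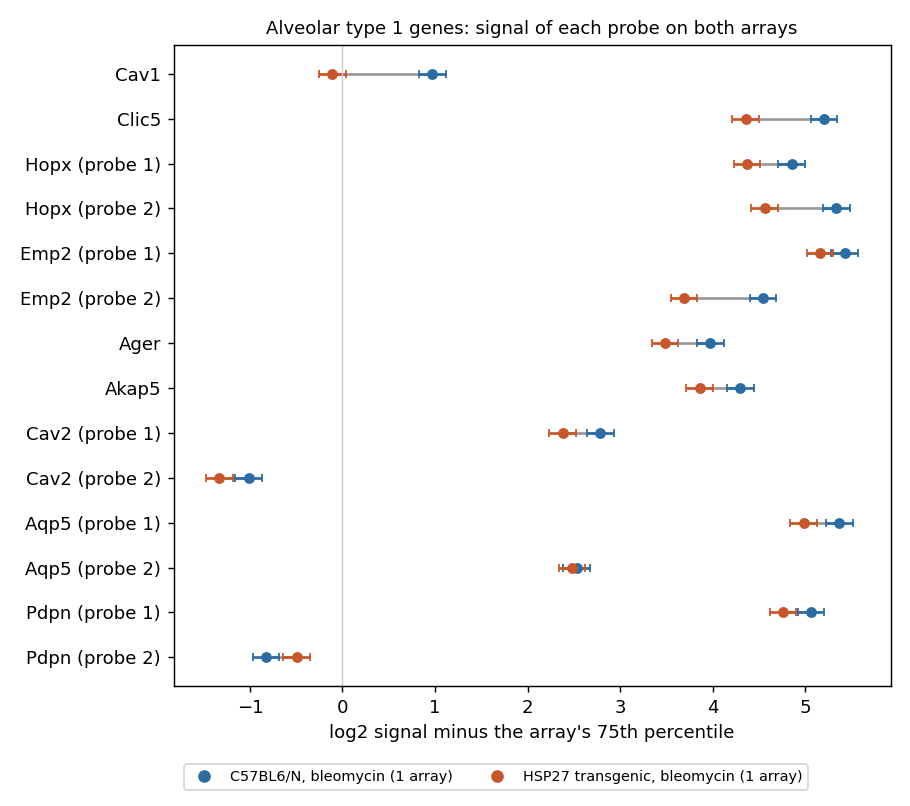
Signal of each of the 14 probes on the C57BL6/N array (blue) and the transgenic array (orange), as log2 signal minus the array's 75th percentile, with bars for the scanner software's error of a spot (about 10%). In 13 of 14 pairs the transgenic point lies to the left of the C57BL6/N point, and probe 2 of Pdpn is the exception; levels of different probes are not comparable.

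Precision within an array was judged in 2 ways, neither of which includes variation between animals. The scanner software gave an error of about 10% for each spot, which makes 0.20 on the log2 scale for a difference between the arrays. Of the 14 member probes, 13 differed by more than this error and 7 by more than 2 times the error. The share of all usable probes past the same error was not counted, so nothing particular to these genes can be read from this. The software's error was near 10% at every member probe, bright or dim, so these counts use a nearly constant 0.20. Probes printed in 8 or more spots gave a smaller error: over the 101 brightest of these the pooled SD of a difference was 0.05, and over the 102 dimmest 0.13.

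Ager, the receptor for advanced glycation end-products (RAGE), is in lung a marker largely confined to type 1 cells. Its single probe read 20211 in C57BL6/N and 15945 in transgenic lung. The scaled log2 signals were 3.97 and 3.48, a difference of -0.49, so that the transgenic signal was 71.2% of the other. This is 1.40-fold lower, short of 1.5-fold, and 12.2% of all measured genes differed as far down or further. Genes of RAGE ligands lay on both sides of 0: of 8 measured, 2 were at least 1.5-fold higher and 0 lower. S100b, a calcium-binding protein of the S100 family, was at 1.07 and S100a4 at 0.89, whereas S100a9, a neutrophil protein, was at -0.58 and Hmgb1, a nuclear protein that signals when released, at -0.05, and at 0.00 with median scaling.

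Hopx is an unusual homeodomain protein that does not bind DNA and marks type 1 cells once they form. Probe 1 read 37218 in C57BL6/N and 29509 in transgenic lung (-0.48). At probe 2 the readings were 51967 and 33687 (-0.77). Both probes read lower on the transgenic array, and their mean difference of -0.63 made Hopx the last of the members past 1.5-fold. With median scaling in place of the 75th percentile it was at -0.57, short of 1.5-fold. Heart muscle, which also makes Hopx, had its own markers far higher on the transgenic array, with 9 of 11 measured cardiac genes at least 1.5-fold higher and 1, Myh7, lower (-0.97). The part of heart muscle RNA in the Hopx value was not tested.

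Pdpn, podoplanin, is a mucin-type glycoprotein of the apical membrane of type 1 cells and the ligand of the platelet receptor CLEC-2. Its probes pointed in opposite directions. Probe 1 read 42998 in C57BL6/N and 38594 in transgenic lung, a scaled difference of -0.30. Probe 2, which was dim, read 725 and 1011, a difference of 0.33. The mean of 0.01 therefore describes neither probe, and the brighter probe alone puts Pdpn below 0. A gap of 0.64 between probes, as here, or wider occurred in 12.6% of the 3413 genes with 2 usable probes, and probes of opposite direction in 29.2%.

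Around Pdpn, the list of partners and of linkers to the cell cortex held 6 measured genes, all below 0. Clec1b, which encodes CLEC-2, was at -0.74, the lowest of them and the only one at least 1.5-fold lower, and its 3 probes lay between -0.77 and -0.71. Ezrin (Ezr), moesin (Msn) and radixin (Rdx), which tie membrane proteins to actin, were at -0.28, -0.34 and -0.16. Markers of mesothelium and lymphatic endothelium, 2 other sources of podoplanin, lay on both sides. Wt1, a mesothelial transcription factor, was at 0.83, Krt19, a keratin also of transitional epithelium, at 0.50 and Lyve1, a receptor of lymphatic vessels, at -0.66, while Prox1, which defines lymphatic endothelium, was not well above background on either array. The part of these cells in the Pdpn values was not tested.

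Aqp5 is the water channel of the apical type 1 cell membrane, also made in airway glands. Probe 1 read 53090 in C57BL6/N and 45028 in transgenic lung (-0.39), and probe 2 read 7427 and 7951, which is -0.05 after scaling. The raw reading of probe 2 was thus higher on the transgenic array and the scaled one slightly lower, within the scanner error of 0.20. The mean over both probes was -0.22, the smallest of the 8 negative differences. Some other aquaporins differed more and others less, among them Aqp2 at 0.07. Aqp3, a water and glycerol channel of basal airway cells, read 135 in C57BL6/N and 1413 in transgenic lung (3.24), and Aqp4, of airway epithelium, was at 0.96. Aqp1, the endothelial water channel, read 61734 and 46410 (-0.56). The list of other aquaporins had 7 of 10 genes measured on both arrays, with 2 at least 1.5-fold higher and 0 lower, and Aqp6, Aqp9 and Aqp12 were not well above background on either array.

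The caveolins form the coat of caveolae: Cav1 is needed for the pits to form, and Cav2 assembles with it. Cav1 had the lowest value of the list. Its single probe, matched to RefSeq transcript NM_001243064, read 2524 in C57BL6/N and 1323 in transgenic lung. After scaling this was -1.08, 2.11-fold lower, and 1.42% of all measured genes were as low or lower. Cav2 was lower by less, at -0.41 and -0.32 for its 2 probes and -0.36 over both. Cav1 and Cav2 differed from each other by more than the 0.09 between the Cav2 probes. That gap is a narrow measure, since 76.9% of genes with 2 usable probes had 1 at least as wide, with a median of 0.24. A single Cav1 probe also leaves its own gap between probes unmeasured, so whether the 2 genes differ is not settled.

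The first Cav2 probe was printed in 10 spots per array and gives the most precise value of the list. On the C57BL6/N array the spots ran from 8444 to 9147, with a median of 8971. On the transgenic array they ran from 7144 to 7636, with a median of 7458. The spots of the 2 arrays did not overlap, before or after scaling. The share of other repeat-spot probes without overlap was not counted, so this is not shown to be particular to Cav2. The mean difference of -0.41 had an SD of 0.014 over the 10 spots. That SD covers the printing and scanning of 1 pair of RNA samples. The other Cav2 probe, at 638 and 568, repeated the direction.

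**Figure D2:**
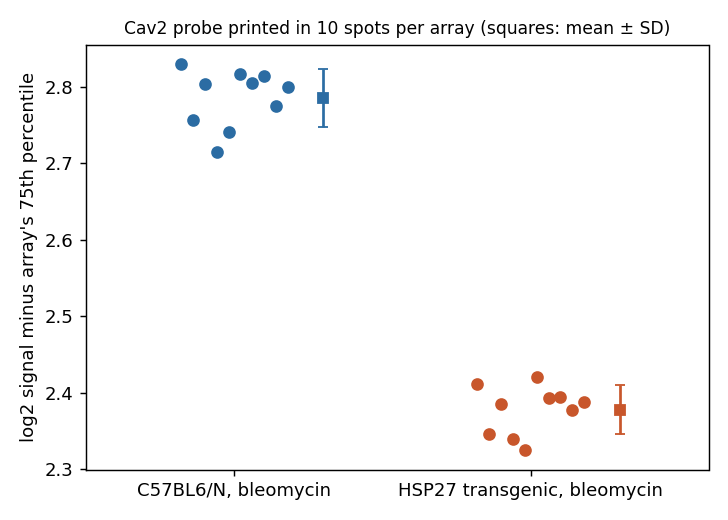
Scaled log2 signal of the 10 spots of 1 Cav2 probe on the C57BL6/N array (blue) and the transgenic array (orange); squares with bars give the mean and SD over spots. The C57BL6/N spots lie between 2.71 and 2.83 and the transgenic spots between 2.32 and 2.42. Spots are technical repeats of 1 sample each.

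Other caveola genes lay on both sides of 0. The cavins Cavin1 and Cavin2, coat proteins that work with Cav1 in endothelium, epithelium and fat, were at -0.92 and -0.89, and Ehd4, an ATPase of membrane traffic, was at -0.66. Cavin2 read 136267 in C57BL6/N and 81500 in transgenic lung. The muscle forms Cav3 and Cavin4 were higher. Cav3, the caveolin of heart and skeletal muscle, read 651 in C57BL6/N and 1376 in transgenic lung (0.93). Cavin4, the muscle cavin, read 53.0 and 93.8 (0.68), though it was at 0.36 with normexp background correction. Another cavin, Cavin3, was also above 0, at 0.29. Of 9 caveola genes measured on both arrays beside Cav1 and Cav2, 3 were at least 1.5-fold lower and 2 higher, and the median of -0.05 turned to 0.01 with median scaling. Signals of a list's probes well above background on at least 1 array were summed, in multiples of each array's 75th percentile. A gene with 2 such probes enters 2 times. Heart muscle markers stood at 6.70 in C57BL6/N and 41.3 in transgenic lung. The sums were 3.55 and 38.1 for fat and 343 and 211 for endothelium. Bright probes weigh most in such a sum (Myh6, the atrial and adult mouse heart myosin, read 131 and 19725), so each sum is read between the arrays and not against another list. The part of these tissues in the caveolin values was not tested.

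Cav2 and Cav1 are next to each other on mouse chromosome 6 in the RefSeq gene order of GRCm38.p6. The protein-coding genes on the Cav2 side, Tes and Tfec, were at 0.33 and 0.83. On the Cav1 side, Met, the receptor of hepatocyte growth factor, was at -0.48 and Capza2, an actin-capping subunit, at 0.32. Of these flanking genes only Met was thus below 0, as were 54.0% of all measured genes, while Tes, Tfec and Capza2 were above 0. Cav1 and Cav2 were listed with earlier results known, so a run of lower values is no finding here. Each of the flanking genes rests on 1 probe. These 4 genes were chosen for their position and not for their values.

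Emp2, a tetraspan membrane protein of the PMP22 family that is abundant in type 1 cells, was lower at both probes. Probe 1 read 55234 in C57BL6/N and 50965 in transgenic lung (-0.26). At probe 2 the readings were 30012 and 18383 (-0.86). The mean of -0.56 was just short of 1.5-fold, with 1 probe on each side of that line. With the brighter probe alone Emp2 was at -0.26. A gap between probes of 0.59 or wider occurred in 15.1% of genes with 2 usable probes, whose median gap was 0.24. Relatives of Emp2 ranged widely, with Pmp22, also made by type 1 cells, endothelium and fibroblasts, at -0.73, Emp1 at 0.12 and Emp3, abundant in leukocytes and mesenchyme, at scaled log2 levels of 1.24 in C57BL6/N and 2.24 in transgenic lung.

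Clic5 encodes an intracellular chloride channel protein that associates with actin and ezrin, and it is found in type 1 cells and in capillary endothelium. Its single probe read 47313 in C57BL6/N and 29204 in transgenic lung. Scaled, the log2 signals were 5.20 and 4.36, a difference of -0.84 or 1.80-fold, and the transgenic signal was 55.7% of the other. Of all measured genes, 3.29% were as low or lower. None of its 4 measured relatives was past 1.5-fold in that direction: Clic3 was at -0.34, Clic4, an endothelial form, at -0.18 over probes at -0.40 and 0.04, Clic1 at 0.18 and Clic6 at 0.60.

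Akap5, a scaffold that holds protein kinase A and calcineurin near membrane receptors, read 25317 in C57BL6/N and 20668 in transgenic lung at its single probe. The scaled difference was -0.44 (1.36-fold lower). Genes of its binding partners and of cyclic AMP signalling were mostly lower, with 10 of 13 below 0 and a median of -0.18. Of the 13, 4 were at least 1.5-fold lower and 0 higher. Over the other ways of processing, 3 to 5 were at least 1.5-fold lower. Among the lowest were the adenylyl cyclase Adcy8 at -0.84 and the related scaffold Akap12 at -0.76 (-0.52 at its brighter probe). The highest were the regulatory subunits of protein kinase A, Prkar2a at 0.27 and Prkar2b at 0.23. Rtkn2, another type 1 cell marker, has no value here.

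**Figure D3:**
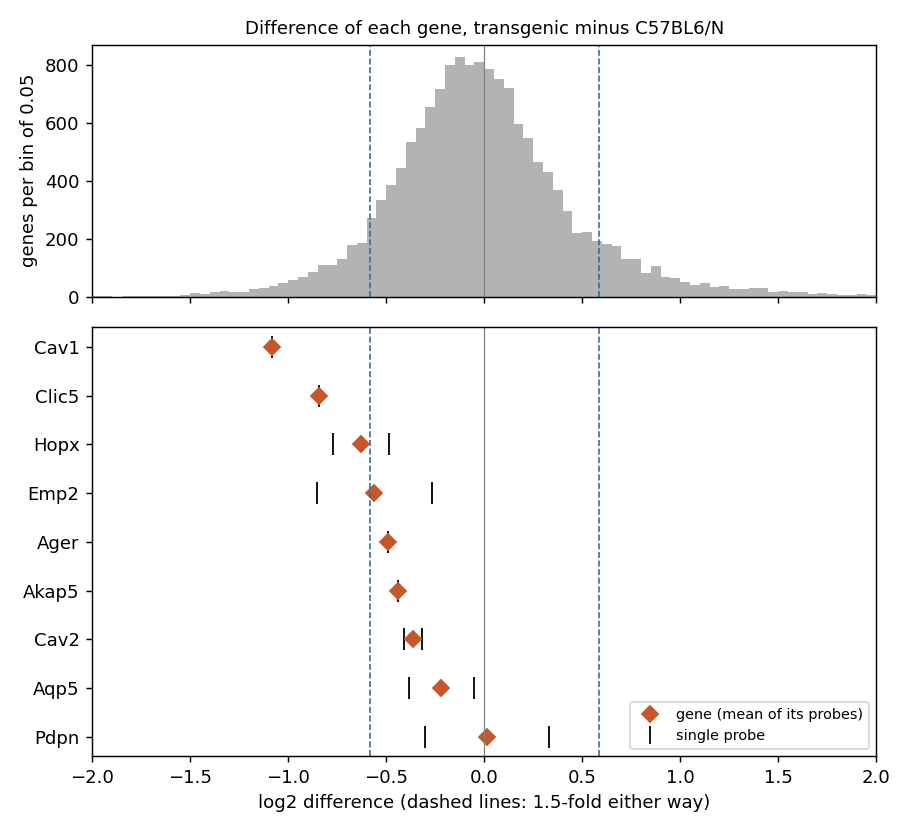
Top, number of genes per bin of 0.05 in log2 difference, transgenic minus C57BL6/N, over genes measured on both arrays (axis cut at -2 and 2); bottom, the 9 measured type 1 cell genes, with diamonds for the gene and ticks for single probes. Cav1, Clic5 and Hopx lie beyond the dashed line at 1.5-fold lower, and the ticks of Pdpn fall on both sides of 0.

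Among themselves, the 9 genes fell into an order from Cav1 (-1.08) through Clic5 (-0.84), Hopx (-0.63), Emp2 (-0.56), Ager (-0.49), Akap5 (-0.44), Cav2 (-0.36) and Aqp5 (-0.22) to Pdpn (0.01). Most neighbours in this order cannot be separated. The probes of Emp2 were 0.59 apart and those of Hopx 0.29, wider than the steps between Hopx, Emp2, Ager, Akap5 and Cav2. Cav1, Clic5, Ager and Akap5 rest on 1 probe each.

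Other genes known from type 1 cells were mostly lower as well. Of 24 measured, 21 were below 0, 8 were at least 1.5-fold lower and 0 higher, and the median was -0.44. The lowest were Vegfa, the endothelial growth factor that type 1 cells supply to capillaries (-1.08, probes at -1.42 and -0.75), Igfbp2, an insulin-like growth factor binding protein of mature type 1 cells (probes at -1.02 and -0.97), and Col4a4, a chain of the alveolar basement membrane (-0.97, and -0.55 at its brightest probe). The highest were Fstl3 (0.30), Gramd2 (0.17, but -0.51 without the filter on dim probes) and Hs2st1 (0.01, and -0.01 with normexp). This list was written with the earlier values of some of its genes known, so that its direction is no independent support.

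The list of regulators of type 1 cell identity had a median of -0.30. It also holds the Hippo kinases Lats1 and Lats2, 2 target genes, and Etv5, which is shared with the type 2 cell list. Its median and counts therefore pool genes of different roles. Nkx2-1, the lung lineage factor that type 1 cells need to keep their identity, was at -0.35, and Gata6 at -0.43. The TEAD factor Tead1 was at -0.48 and its co-activator Yap1 at -0.40, whereas Wwtr1, which encodes the co-activator TAZ, was at 0.13. Of the 15 genes on the list, 11 were below 0. Klf6 (-0.61, and -0.56 with median scaling) was the only 1 at least 1.5-fold lower. Ajuba, a LIM protein that restrains the Hippo kinases, was the only 1 at least 1.5-fold higher (0.68). Klf5 was the next highest, at 0.36. Of 2 targets of YAP and TAZ, Ccn2 was at 0.22 and Ccn1 at -0.27. Nkx2-1, Yap1, Wwtr1, Ccn1, Lats1, Lats2 and Etv5 are named for their roles, after their values were seen. They were not among the highest or lowest of the list.

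**Figure D4:**
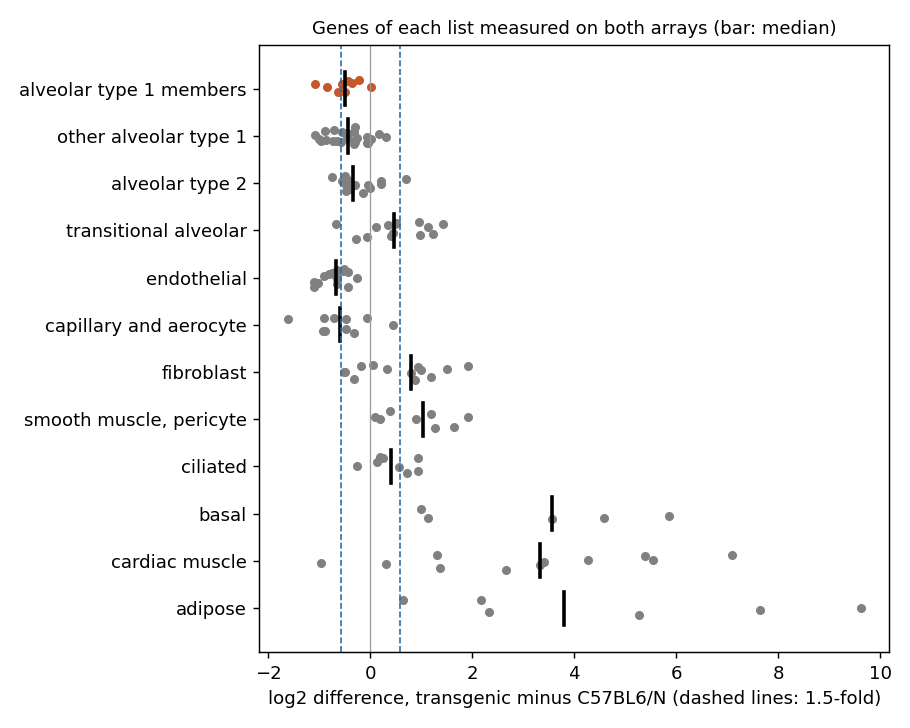
Log2 difference, transgenic minus C57BL6/N, of each gene measured on both arrays in 12 lists of cell type genes; black bars are medians and dashed lines mark 1.5-fold. The type 1 cell genes (orange, median -0.49) lie among other type 1 cell genes (-0.44), type 2 cell genes (-0.35) and endothelial genes (-0.67), while basal, cardiac muscle and adipose genes reach far to the right.

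Set beside the cells around them, the type 1 cell genes (median -0.49) lay between endothelium and type 2 cells by their medians. All 16 endothelial genes were below 0 and 11 were at least 1.5-fold lower (median -0.67), and of 10 genes of capillaries and of the aerocytes that face type 1 cells 5 were (median -0.59). Type 2 cell genes had a median of -0.35, with 1 of 14 lower and 1 higher. Among them Slc34a2, a phosphate carrier, was at -0.55 and Lyz2, shared with macrophages, at 0.70. Transitional epithelium genes lay mostly above 0 (median 0.47), 5 of 14 at least 1.5-fold higher and 1 (Areg, -0.67) lower. Sprr1a, a cornified envelope protein, was at 1.43 and Cldn4, a tight junction claudin, at 1.13, though Cldn4 was at 0.57 with normexp, short of 1.5-fold. Over the other ways of processing, 4 to 5 of the 14 were higher. Whether these lists differ from the type 1 cell genes could not be tested with 1 array per group.

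Most measured markers of basal cells, heart muscle, fat and airway secretory cells were higher in the transgenic library. All 5 measured basal cell genes were at least 1.5-fold higher (median 3.57), although Trp63 was at -0.23 at its brightest probe and 3 to 5 passed over the other ways of processing. Cardiac muscle genes had a median of 3.33 and adipose genes 3.80. Sln and Mb of muscle, and Adipoq, Plin1 and Pck1 of fat, passed background in the transgenic library alone. Lep was above background on neither. Airway secretory genes reached a median of 5.62, 8 of 10 being at least 1.5-fold higher, while Scgb1a1, the club cell protein, was at -0.19. Fibroblast genes had a median of 0.80 with 7 of 13 higher, led by Cthrc1 (1.92), while the leukocyte genes had a median of -0.27 with 3 of 9 lower. The part of these tissues in the type 1 cell values was not tested.

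**Figure D5:**
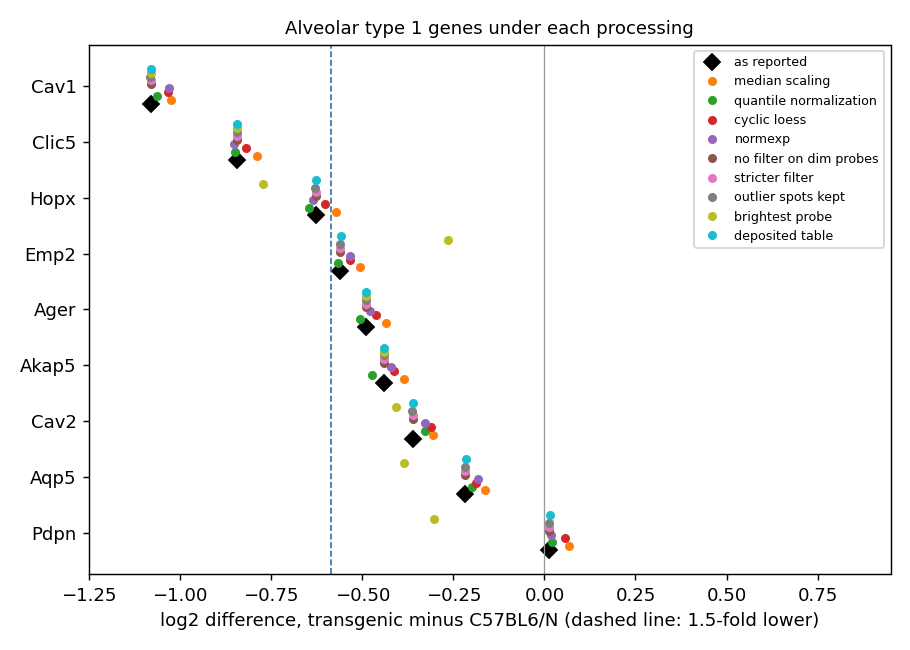
Log2 difference of each measured type 1 cell gene as reported (black diamonds) and under 9 other ways of processing (coloured points); the dashed line marks 1.5-fold lower. Cav1 and Clic5 stay left of the line throughout, Hopx crosses it with median scaling, and Pdpn crosses 0 with the brightest probe.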

How the data were processed

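Per the file headers, the deposited array files give a background-subtracted, detrended intensity for each spot (1 colour, Cy3; Agilent Feature Extraction 11.5.1.1), not normalized between arrays, beside deposited 0 or 1 flags for background, saturation and outliers. The deposited table of the series holds intensity on a linear scale that equalled the processed signal within 0.1% at all 39012 probes compared per array.

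Control and outlier spots were left out, log2 signals of a probe's spots were averaged, and each array's 75th percentile over its remaining probes was subtracted. A usable probe had 50% or more of its spots well above background, and no saturation, on each array, and a gene is the mean of its probes. Names came from a RefSeq table of GRCm38.p6. The arrays were designed on mm9, so the only coordinates given are those of the RefSeq promoter windows. Lists are compared at 1.5-fold, with no test. All 10 members are named. Of each other list at most the 3 highest, the 3 lowest and defining markers are named, except that more regulators were named for their roles. The members and lists were chosen with earlier results of these data known. The steps were tested on simulated data. Python 3.11.15, numpy 2.4.6, pandas 2.3.3, matplotlib 3.10.9, R 4.3.3 and limma 3.58.1 were used.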

Additional observations from a re-analysis of the deposited data

How the results depend on the processing

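Alternatives were median scaling, quantile normalization, cyclic loess, normexp with an offset of 50 (without 7 spots whose local background reached their signal), dropping or tightening the filter on dim probes, keeping outlier spots, taking the brightest probe, and the deposited table. The median of the members was -0.49 as reported and -0.44 with median scaling, and lay from -0.51 to -0.44 over all of these. Members at least 1.5-fold lower numbered 3 in the reported processing and in 8 alternatives, each time Cav1, Clic5 and Hopx, and 2 with median scaling. None was at least 1.5-fold higher in any. Normexp lowered the share of all genes at least 1.5-fold lower from 8.31% to 4.40% and of those higher from 10.2% to 6.33%. The brightest probe moved Emp2 to -0.26 and Pdpn to -0.30. No paired analysis was possible because each group has 1 array and the labels give no replicate numbers. Without replicates, precision rests on 1 array per group.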
